A study of Mus musculus with 5 samples.

Results

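The miR-26 family was followed through small RNA of extracellular vesicles (EVs), the membrane-bound particles that cells release, before and after freeze-drying. Its members were taken by name from the deposited count table. They are the 5p strands mmu-miR-26a-5p and mmu-miR-26b-5p and the 3p strand mmu-miR-26a-2-3p, which makes 3 members of 1966 miRNA rows. The table also lists the other 2 strands of the family, miR-26a-1-3p and miR-26b-3p, so that all 5 could be described. The study compared the miRNA content of EVs in both states. The vesicles came from mesenchymal stem cells of C57BL/6-GFP transgenic mice, which give rise to bone, cartilage and fat. One group, titled unmodified by the submitters, was not freeze-dried (2 libraries). The other was frozen at -80 °C in 25 mM trehalose, a protective sugar, then freeze-dried overnight and rehydrated for 1 h (3 libraries). Both groups shared 48 h of release into serum-reduced medium and pelleting at 100000 g for 110 min, per the labels' protocols. These give 1 text for all libraries, in which pelleted EVs in general were kept in buffer with or without 25 mM trehalose, so trehalose is not shown to differ between the groups, and the buffer of the not freeze-dried libraries is not singled out. The labels do not tell whether replicates are separate cultures, so the p-values cover the spread between these libraries, which may be technical.

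A miRNA is cut from a hairpin precursor, and 1 strand of the cut duplex is loaded into an Argonaute protein, where bases 2 to 8, the seed, pair with target messenger RNAs. miR-26 hairpins lie within Ctdsp1, Ctdsp2 and Ctdspl, genes of small phosphatases that act on the tail of RNA polymerase II. Among the known targets of miR-26 are Ezh2, a histone methyltransferase, and Smad1 and Gsk3b of the BMP and Wnt pathways, and miR-26a is known for its part in osteogenic differentiation of mesenchymal stem cells.

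The mature sequences show what the family shares and where it splits. They were taken from RefSeq (GRCm38.p6), where all 5 strands matched by name. Each is written 5′ to 3′ with the seed in capitals.

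mmu-miR-26a-5p: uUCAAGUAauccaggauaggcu

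mmu-miR-26b-5p: uUCAAGUAauucaggauaggu

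mmu-miR-26a-2-3p: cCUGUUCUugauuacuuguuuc

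mmu-miR-26b-3p: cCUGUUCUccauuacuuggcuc

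mmu-miR-26a-1-3p: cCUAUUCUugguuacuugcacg

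Both 5p strands carry the seed UCAAGUA, and no other mature miRNA of the RefSeq table does. Over their 21 shared positions, counted from 1 at the 5′ end, miR-26a-5p and miR-26b-5p differ at 2, C11U and C21U, and miR-26a-5p is 1 base longer at 22. Over the first 20 bases only C11U separates them, while the next nearest mature sequence had 8 mismatches. A read of either 5p strand that is trimmed to those 20 bases is thus told apart by 1 base. How many mismatches the alignment allowed is not given in the sources used here. miR-26a-2-3p and miR-26b-3p share the seed CUGUUCU and differ at 4 positions (U9C, G10C, U19G and U20C). The seed of miR-26a-1-3p differs from it by the change A4G. miR-7039-3p and miR-6932-3p also carry CUGUUCU, with 3 counts and 0 counts in all libraries.

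The hairpins are shown with both mature strands in capitals, because they show why the 2 genes of miR-26a cannot be separated by its 5p reads.

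Mir26a-1: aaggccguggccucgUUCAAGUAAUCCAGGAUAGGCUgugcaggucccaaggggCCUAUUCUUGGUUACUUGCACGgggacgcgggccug

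Mir26a-2: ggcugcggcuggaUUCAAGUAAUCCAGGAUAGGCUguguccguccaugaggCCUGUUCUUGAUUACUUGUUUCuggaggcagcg

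Mir26b: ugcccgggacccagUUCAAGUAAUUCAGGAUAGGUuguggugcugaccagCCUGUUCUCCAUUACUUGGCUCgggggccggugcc

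Mir26a-1 lies at chr9:119031796-119031885 (GRCm38, plus strand), within Ctdspl on the same strand. In GENCODE M21 it is in intron 5 of the 7 introns of the principal Ctdspl transcript, an intron of 3283 bases. Mir26a-2 lies at chr10:126995530-126995613 on the plus strand, in intron 5 of 7 of the principal Ctdsp2 transcript, which is 1946 bases long. That hairpin overlaps an exon in 2 of the 4 Ctdsp2 transcripts, 1 protein-coding and 1 with a retained intron. Mir26b lies at chr1:74394310-74394394 on the plus strand, in intron 4 of 6 of Ctdsp1, an intron of 564 bases. The hairpins of Ctdspl and Ctdsp2 release the same miR-26a-5p, and their 3p strands differ at 6 of 22 positions, so only a 3p read could name its gene of origin.

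Library depth, as the sum of miRNA counts, lay between 131507 and 2914305. Not freeze-dried replicate 1 and freeze-dried replicates 1 and 2 had at least 500000 counts and are called deep. Not freeze-dried replicate 2 and freeze-dried replicate 3 had less and are called shallow. The 8 mesenchymal and fibroblast marker miRNAs were all counted, at 21.5% to 21.9% of counts in not freeze-dried and 15.2% to 17.6% in freeze-dried libraries, with no overlap. Of the leukocyte markers, the defining miR-142a-3p and miR-142a-5p were at 0, and the list took 0.0114% to 0.0279% of counts in not freeze-dried and 0% to 0.00883% in freeze-dried libraries, again with no overlap. Among epithelial markers miR-200c-3p and miR-141-3p were at 0, and the list took 0% in not freeze-dried and 0.00208% to 0.00975% in freeze-dried libraries, so the observed shares did not overlap there either. A 0 in not freeze-dried replicate 2 allows up to 0.00228%, taking 3 counts as the limit, so the epithelial shares are not separated beyond counting. The closest leukocyte shares of the groups, 0.0114% and 0.00883%, came from the shallow libraries. Whether they differ beyond counting was not tested. Of the single miRNAs tested below, 17.4% also showed no overlap, in normalised levels, a measure unlike a list's summed share of counts. Red cell markers took 0.0758% to 0.120% in not freeze-dried and 0.0922% to 0.170% in freeze-dried libraries, and muscle markers 0.326% to 0.419% and 0.322% to 0.469%. The hepatocyte, endothelial and neural markers took at most 0.0404% each, and their ranges overlapped between the groups. What part the differences in marker shares have in the results on miR-26 was not tested.

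miR-26a-5p was the main strand of the family and a well-counted miRNA of these vesicles in each library. Its counts were 11502 and 1256 in replicates 1 and 2 of the not freeze-dried group, and 37000, 26087 and 1733 in freeze-dried replicates 1, 2 and 3. Levels between libraries were compared as CPM (counts scaled to a common library total) after TMM normalization, which scales libraries so that most miRNAs agree between them. CPM is a share of a library's miRNA counts, so a loss shared by all miRNAs does not show in it. Such a loss, by fewer vesicles or by less miRNA per vesicle, can be neither seen nor told apart. On this scale miR-26a-5p stood at 11288 and 9628 CPM in not freeze-dried EVs, and at 13464, 10134 and 9868 CPM in freeze-dried EVs. Freeze-dried replicate 1 was the highest library, and the other freeze-dried ones lay between the not freeze-dried values. The highest library was 1.40 times the lowest. Its mean was 10458 ± 1174 CPM in not freeze-dried (SD, n = 2) and 11155 ± 2004 CPM in freeze-dried EVs (SD, n = 3).

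miR-26b-5p, the Ctdsp1 strand with the same seed, had 1855 and 238 counts in not freeze-dried EVs and 5503, 3844 and 378 in freeze-dried EVs. Its normalised levels were 1821 and 1824 CPM in both not freeze-dried libraries, and 2003, 1493 and 2152 CPM in freeze-dried replicates 1, 2 and 3. Freeze-dried replicate 2 was the lowest library and freeze-dried replicate 3 the highest, on either side of the not freeze-dried values. The means were 1822 ± 2.7 CPM (SD, n = 2) and 1883 ± 345 CPM (SD, n = 3).

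**Figure D1:**
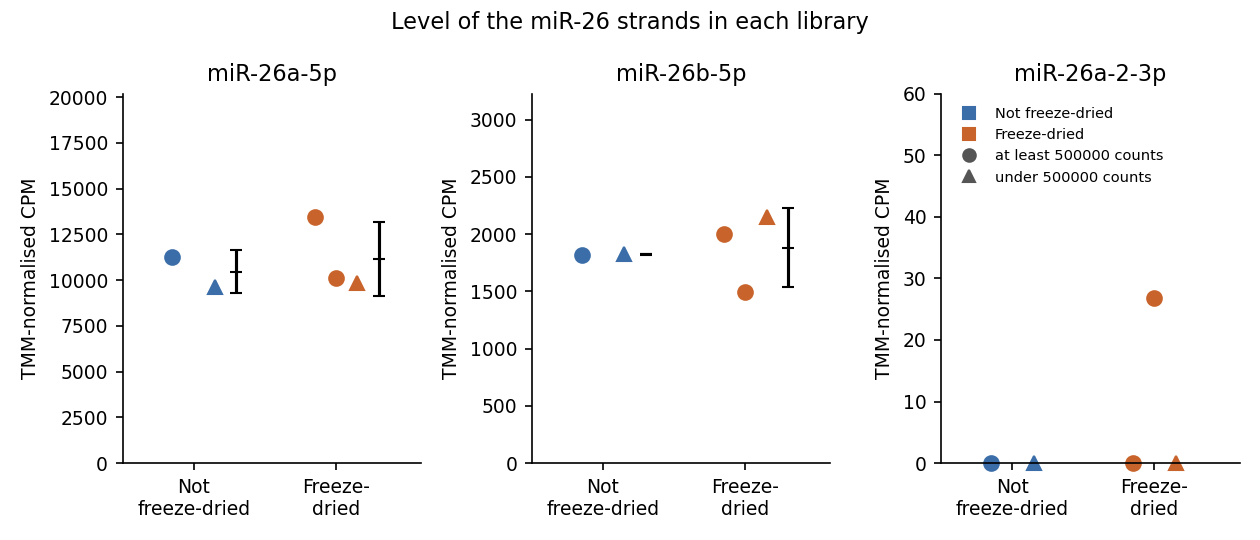
TMM-normalised CPM (linear axes, different ranges) of the 3 strands in each library, by group, with circles for deep and triangles for shallow libraries and black marks for mean ± SD of the 5p strands. The 5p strands overlap between groups, and miR-26a-2-3p is above 0 in freeze-dried replicate 2 only.

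Neither 5p strand passed the test between the groups. Their log2 fold changes were near 0, and the sign of each turned under another scaling. In edgeR's quasi-likelihood test miR-26a-5p stood at 0.093 on the log2 scale (95% interval -0.54 to 0.72, SE 0.28, unadjusted p = 0.747, Benjamini-Hochberg adjusted p = 0.976). This equals a fold change of 1.07, with an interval from 0.690 to 1.65. miR-26b-5p stood at 0.047 on that scale (interval -0.76 to 0.85, SE 0.36, unadjusted p = 0.900, adjusted p = 0.976 in edgeR), a fold change of 1.03 with an interval from 0.591 to 1.80. Of the 327 tested miRNAs edgeR called 0, or 0%, and 0 of the 2 tested members. At an unadjusted p under 0.05 edgeR had 9 of the 327, DESeq2 16 and limma-voom 15, none of them called by DESeq2 or limma-voom and none of them a miR-26 strand. Complete separation of the libraries of the 2 groups by CPM was seen for 17.4% of the tested miRNAs, and for 0 of the 2 members. With the raw library totals in place of TMM, the log2 fold changes were -0.045 for miR-26a-5p and -0.094 for miR-26b-5p. The median of all tested miRNAs moved from 0.015 to -0.094 with that scaling, and relative to it the members stood at 0.049 and 0.00.

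How far these data bound a change in level relative to the other miRNAs is given by the intervals. For both strands the 95% interval lay inside 2-fold in either direction. This held for 8.56% of all tested miRNAs (28 of 327), and for 31.5% of the 89 with a mean of at least 1000 CPM. miR-26b-5p was the least abundant of the 28. For miR-26a-5p the interval passed the 2-fold line without not freeze-dried replicate 1 (upper limit 1.14 on the log2 scale) and without freeze-dried replicate 3 (1.001). For miR-26b-5p it did so without any 1 library other than freeze-dried replicate 3. Its widest intervals then were -0.995 to 1.22 without not freeze-dried replicate 1 and -1.09 to 1.09 without not freeze-dried replicate 2. The bound of each strand thus rests on single libraries.

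**Figure D2:**
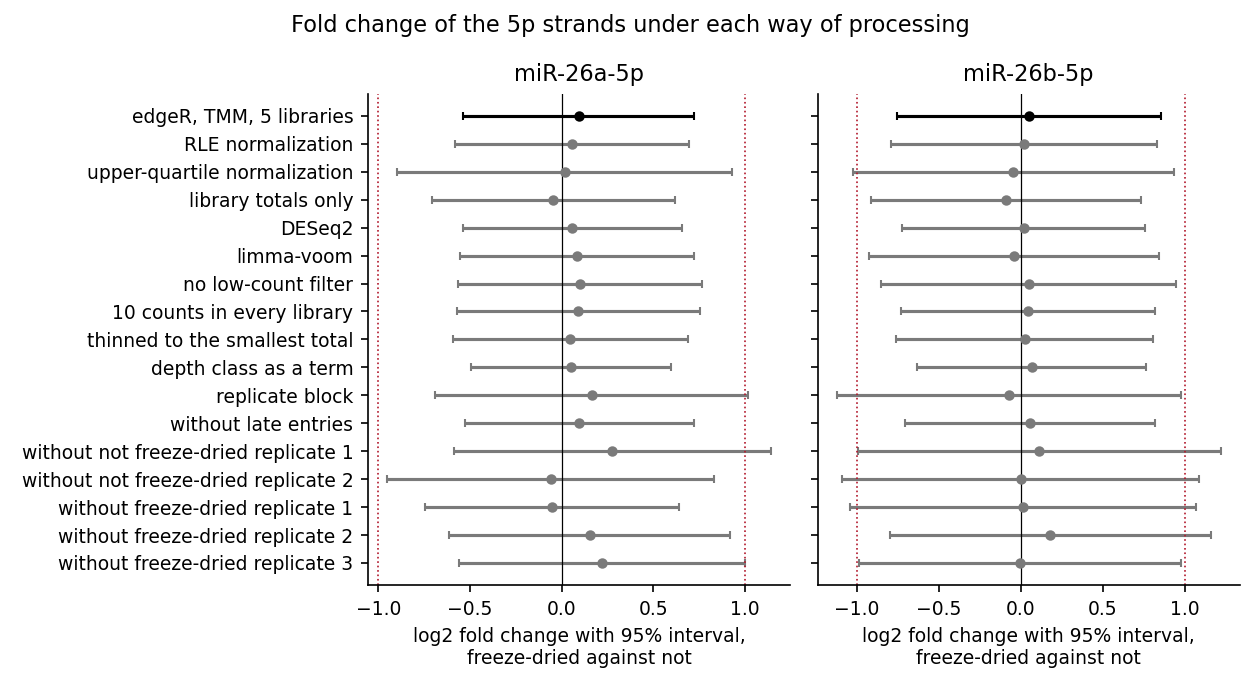
Log2 fold change (points) and 95% interval (bars) of miR-26a-5p and miR-26b-5p, freeze-dried against not freeze-dried, for edgeR with TMM (black) and for each alternative (grey). The red dotted lines mark a 2-fold change, and in every row the interval spans 0.

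The spread of the 5p strands between libraries was small for their level. The SD of log2(CPM + 1) over the 5 libraries was 0.199 for miR-26a-5p and 0.198 for miR-26b-5p. These were the 11th and 10th lowest of the 89 tested miRNAs with at least 1000 CPM, whose median was 0.389. The median over all 327 tested miRNAs, which includes those with few counts, was 1.36. This order is a description, with no test of whether the members differ from other miRNAs of like abundance.

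**Figure D3:**
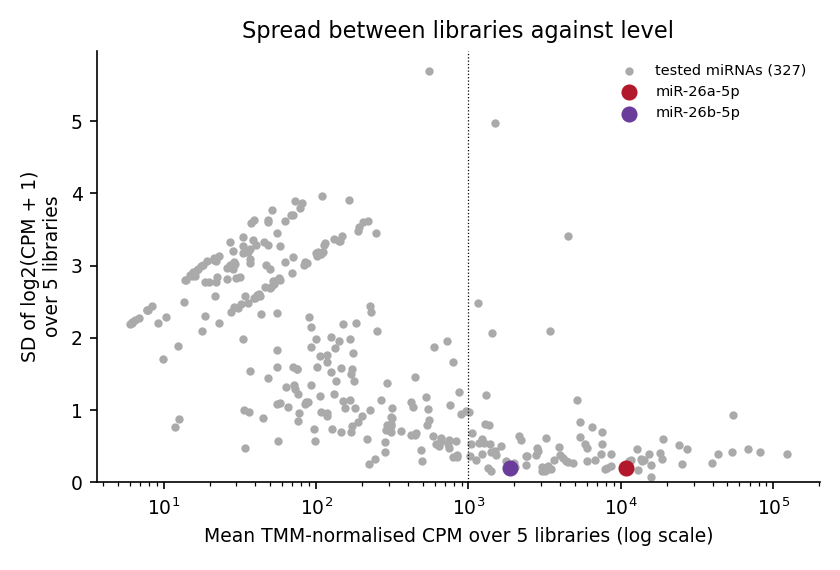
SD of log2(CPM + 1) over the 5 libraries (y axis) against mean CPM (log x axis) for the 327 tested miRNAs in grey, with miR-26a-5p in red and miR-26b-5p in violet. Right of the dotted line at 1000 CPM, both sit low in the cloud, at 0.199 and 0.198.

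By mean level over all libraries miR-26a-5p ranked 24th and miR-26b-5p 66th. Within single libraries miR-26a-5p held ranks 22 to 25 and miR-26b-5p ranks 59 to 72. The neighbours of miR-26a-5p in this order were miR-24-3p, with 8774 to 14568 CPM over the libraries, and miR-214-3p, with 6308 to 12900 CPM. Both ranges overlap its own range of 9628 to 13464 CPM. miR-26b-5p, at 1493 to 2152 CPM, stood between miR-186-5p (1597 to 2396 CPM) and miR-501-3p (1407 to 2268 CPM), again with overlapping ranges. Neither strand is told apart from its neighbours by the spread over libraries.

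The family as a whole took 1.46% and 1.14% of all counts in replicates 1 and 2 of the not freeze-dried EVs, and 1.46%, 1.21% and 1.097% in freeze-dried replicates 1, 2 and 3. The highest value in each group came from a deep library and the lowest from a shallow one. The group means were 1.30% ± 0.23 (SD, n = 2) and 1.26% ± 0.18 (SD, n = 3), so that the groups differed by less than their libraries did (two-sided exact permutation p = 0.80, with 0.2 the smallest possible, adjusted over 3 library measures p = 1). As a share of the counts left after let-7 miRNAs are removed, the difference turned from -0.044 to 0.206 percentage points.

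miR-26a-5p outnumbered miR-26b-5p in every library, and by less in the shallow ones. The ratio of their counts was 6.20 and 5.28 in replicates 1 and 2 of the not freeze-dried EVs, and 6.72, 6.79 and 4.58 in freeze-dried replicates 1, 2 and 3. Divided by strand length, the ratios ran from 4.38 to 6.48. The mean ratios of 5.74 ± 0.65 (SD, n = 2) and 6.03 ± 1.25 (SD, n = 3) differed by less than libraries of 1 group (p = 1 by an exact two-sided permutation test on the log2 ratio, with 0.2 the smallest possible, adjusted p = 1).

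Both shallow libraries had the lowest shares of miR-26a-5p, 1 in each group. Expressed as a share of both 5p strands, miR-26a-5p made up 86.1% (exact Clopper-Pearson 95% interval 85.5 to 86.7), 87.1% (86.7 to 87.4) and 87.2% (86.8 to 87.5) in the deep libraries, in the order not freeze-dried replicate 1 and freeze-dried replicates 1 and 2. In the shallow libraries it made up 84.1% (82.1 to 85.9) in not freeze-dried replicate 2 and 82.1% (80.4 to 83.7) in freeze-dried replicate 3. Within the deep libraries the freeze-dried values were the higher ones, and within the shallow libraries the freeze-dried value was the lower one. The interval of freeze-dried replicate 3 meets none of the intervals of the deep libraries. That of not freeze-dried replicate 2 meets the interval of not freeze-dried replicate 1, but not those of freeze-dried replicates 1 and 2. Such intervals allow for counting alone: the labels mention no molecular identifiers, and reads need not be independent molecules. What part depth has in this ratio was not tested.

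**Figure D4:**
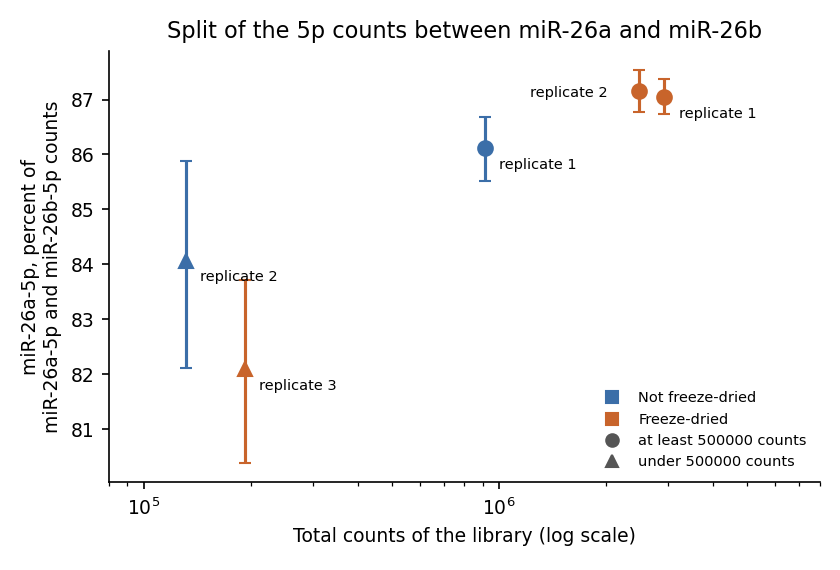
Percent of the 5p counts that belong to miR-26a-5p (y axis, not starting at 0) against total counts of the library (log x axis), with exact 95% binomial intervals, colours for groups and symbols for depth. The 3 deep libraries sit at 86.1% to 87.2% and the 2 shallow ones at 82.1% and 84.1%.

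The 3p strands were nearly absent. mmu-miR-26a-2-3p, cut from the Ctdsp2 hairpin, had 69 counts in freeze-dried replicate 2 and 0 counts in the other 4 libraries. Those 69 counts are 26.8 CPM, or 0.264% of the miR-26a-5p and miR-26a-2-3p counts of that library (exact 95% interval 0.205 to 0.334). The 0 in the deeper freeze-dried replicate 1 allows at most 0.00811% of its miR-26a-5p counts, taking 3 counts as the limit, and the 0 in not freeze-dried replicate 1 at most 0.0261%. In the shallow libraries the limits were 0.239% for not freeze-dried replicate 2 and 0.173% for freeze-dried replicate 3. Freeze-dried replicates 1 and 2, within 1 group, thus differed in this strand by more than counting error, if reads are taken as independent molecules. Counted in 1 library of 5, it did not pass the low-count filter, and no fold change between groups is given.

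Counts that appear in a single library were common here. Of the 517 miRNAs with any count, 159 (30.8%) had counts in exactly 1 library, and 40 of those had at least 69. Of the 40, 17 were in freeze-dried replicate 1, 16 in freeze-dried replicate 2, 7 in not freeze-dried replicate 1 and 0 in a shallow library. The cut of 69 is on raw counts, which a shallow library reaches only at a much higher level. Thinned to 131507 counts, the 69 of freeze-dried replicate 2 became 2. The 0 for shallow libraries thus does not show that they lack such miRNAs. The pattern of miR-26a-2-3p is one of these 40.

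The other 2 strands, miR-26a-1-3p and miR-26b-3p, had 0 of 6623520 counts, which allows up to 0.453 CPM over the pooled counts for each. For miR-26b this sets the 3p strand at no more than 0.0254% of its 11818 5p counts. The arms were compared for the 63 miRNAs with both arms listed, a 5p name without a gene number and at least 10000 counts over all libraries. miRNAs such as miR-92a and miR-24, whose 5p names carry a gene number, were not included. Of the 63, 12 had their minor arm at 0, among them miR-26b, and 37 had it under 1%. The median share of the minor arm was 0.640%, and miR-26a stood at 0.0889%, 20th from the lowest.

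The tested miRNAs whose profile over the 5 libraries came closest to each strand were named by the root mean square difference of log2(CPM + 1), each profile centred on its own mean, among 192 others with at least 100 CPM. For miR-26a-5p these were miR-23b-3p (0.097), miR-23a-3p (0.114), miR-28a-3p (0.139), miR-206-3p (0.172) and miR-30a-5p (0.182), against a median of 0.632. miR-23b-3p stood at 4635 and 3473 CPM in not freeze-dried EVs and at 5911, 4324 and 4071 CPM in the freeze-dried ones, with its highest value, like that of miR-26a-5p, in freeze-dried replicate 1. For miR-26b-5p the closest were miR-222-3p (0.114), miR-196a-5p (0.132), miR-98-5p (0.153), miR-151-5p (0.153) and miR-221-3p (0.160), against a median of 0.635. miR-222-3p stood at 7266 and 9176 CPM in not freeze-dried and at 8770, 6655 and 8900 CPM in freeze-dried EVs, lowest, like miR-26b-5p, in freeze-dried replicate 2. The 2 strands of the same seed differed from each other by 0.219, which put miR-26b-5p 15th in the order of miR-26a-5p and miR-26a-5p 12th in that of miR-26b-5p. These likenesses over 5 libraries share depth and normalization and are descriptions.

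miR-26a-5p was placed on the list of miRNAs taken here to promote osteogenesis. Of the 21 names on that list, 18 had a count and 17 were tested. edgeR called 0. The fold change exceeded 1 for 8 of them and was lower than 1 for 9. Their median on the log2 scale was -0.22, beside 0.015 for all 327 tested miRNAs, of which 51.1% exceeded 1. That median became -0.37 with library totals, beside -0.094 for all tested miRNAs with that scaling. It was 0.29 when not freeze-dried replicate 1 was left out, beside 0.57 for all tested, and 0.033 when freeze-dried replicate 3 was, beside 0.049. In these settings, too, the list's median lay below that of all tested miRNAs. With a term for the replicate number in the fit it lay above, at 0.111 beside 0.05. For 3 of the 17 the libraries of the groups separated completely by CPM, near the share of 17.4% among all tested miRNAs. By mean level miR-26a-5p was behind miR-21a-5p, let-7f-5p and miR-196a-5p and ahead of miR-29a-3p, a regulator of collagen genes. Its range overlapped that of miR-196a-5p, a Hox-cluster miRNA at 10619 to 17116 CPM, and that of miR-29a-3p at 3667 to 11665 CPM. miR-29a-3p was named after its values were seen.

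The 2 most abundant other members of the promoting list were not called. miR-21a-5p, also on the list of mesenchymal markers, had 65630 and 87687 CPM in not freeze-dried and 70787, 38694 and 79886 CPM in freeze-dried EVs, a log2 fold change of -0.28 (SE 0.33). let-7f-5p had 26003 and 20437 CPM against 41675, 18631 and 29403 CPM, a log2 fold change of 0.36 (SE 0.35). Only miR-96-5p had an unadjusted p under 0.05 (0.0498 in edgeR, not called), from 14.7 and 15.3 CPM in not freeze-dried libraries and 0 in all freeze-dried ones. These values show libraries overlapping for the abundant members and few counts behind the other.

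Of the 28 names known to restrain osteogenesis, 21 were tested and edgeR called 0, with 12 fold changes over 1 and 9 under it. The list's median on the log2 scale was 0.090, beside 0.015 for all tested miRNAs. With library totals these medians were -0.025 and -0.094. Their order was not kept in all settings. With a term for depth class they were 0.03 and 0.088, and without the low-count filter 0.129 and 0.247. The list's median also lay below that of all tested miRNAs when any 1 library other than freeze-dried replicate 3 was left out. In the remaining settings it lay above. For 4 of the 21 the groups separated completely, against 17.4% of all tested miRNAs. miR-125b-5p, a mesenchymal marker like miR-143-3p, had 44815 and 31115 CPM in not freeze-dried and 43014, 47063 and 32734 CPM in freeze-dried EVs, a log2 fold change of 0.11 (SE 0.28). miR-143-3p, known from fibroblasts and contractile vessel wall cells, had 60911 and 77039 CPM against 46980, 48588 and 34944 CPM, and a log2 fold change of -0.66 (SE 0.26). It was not called (edgeR, unadjusted p = 0.0296), though all its freeze-dried libraries were below the not freeze-dried ones.

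miR-26a-5p and miR-26b-5p are also among the miRNAs known to repress Ezh2. Of the 8 on that list, 6 had a count and 5 were tested. All 5 had a fold change above 1, none called by edgeR, with a median log2 fold change of 0.30, and the groups did not overlap for 1 of them, against 17.4% of all tested miRNAs. That all tested members lay above 1 held in some settings and not in others. It held (5 of 5) with DESeq2, RLE normalization, the term for depth class, thinning, and without miRNAs numbered 1000 or higher. With at least 10 counts required in every library it held for 3 of 3. Without the low-count filter miR-124-3p was under 1. Library totals put both miR-26 strands under 1, and upper-quartile normalization, limma-voom and the term for the replicate number put miR-26b-5p there. When 1 freeze-dried library was left out, miR-26a-5p was under 1 without replicate 1, miR-214-3p without replicate 2, and miR-26b-5p and miR-124-3p without replicate 3. Leaving out not freeze-dried replicate 2 put 3 of 6 tested members under 1, with a median of 0.27, and leaving out not freeze-dried replicate 1 put 0 of 6 there, with a median of 3.15. The medians of all tested miRNAs in those settings were 0.50 and 0.57. miR-214-3p, of the Dnm3os transcript, had 6308 and 8930 CPM in not freeze-dried and 7597, 12900 and 7624 CPM in freeze-dried EVs, a log2 fold change of 0.30 (SE 0.34). miR-101b-3p had 59.9 and 0 CPM against 65.9, 155 and 228 CPM, a log2 fold change of 2.24 (SE 1.92). In this list the miR-26 strands had the smallest fold changes and miR-101b-3p, with few counts, the largest.

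**Figure D5:**
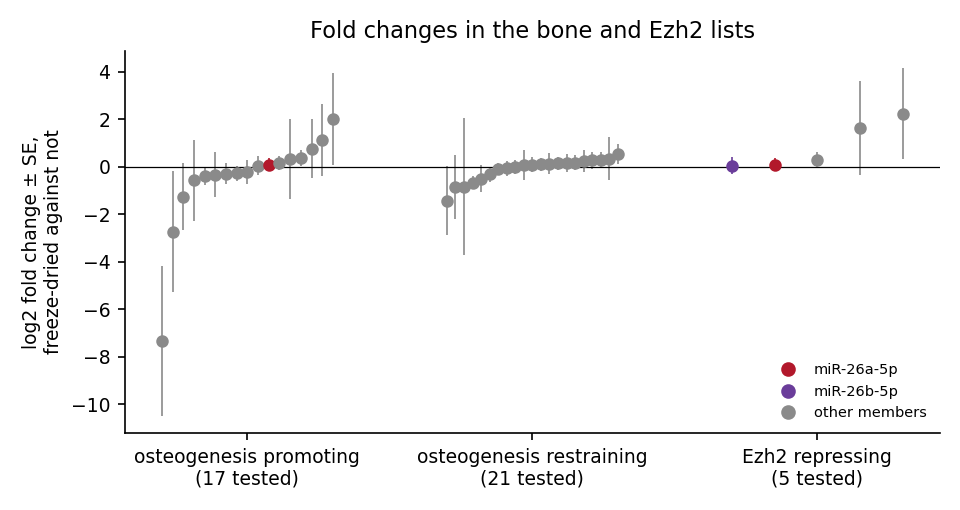
Log2 fold change ± SE, freeze-dried against not freeze-dried, of the tested members of 3 lists, sorted within each list, with miR-26a-5p in red, miR-26b-5p in violet and the others in grey. The miR-26 strands lie at 0.093 and 0.047. The lowest point is miR-96-5p, which was at 0 in all freeze-dried libraries, so its fitted value depends on the prior count.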

How the data were processed

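Per the labels' protocols, library preparation used a NEXTFLEX Small RNA-seq kit (v3), followed by selection of 126 to 169 bp fragments. The authors deposited raw read counts per mature miRNA. Bowtie 1.1.2, cutadapt 2.3 and featureCounts 1.5.0-p1 are listed, with the build GRCm38, bcl2fastq 2.20 and FastQC, in the submitters' processing notes. How reads matching several loci, as those of miR-26a-5p do, were counted is not given in the sources used here. Groups were taken from the sample titles.

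All miRNAs passing filterByExpr (327) were fitted by the robust quasi-likelihood method of edgeR 4.0.16 (R 4.3.3) after TMM normalization, with Benjamini-Hochberg adjustment over all of them and a threshold of 0.05. A SE is the log2 fold change divided by the square root of F. DESeq2 1.42.0 and limma 3.58.1 (voom) were alternatives, beside other scalings, filters, thinning to 131507 counts, depth class, the replicate number as a block and leaving out each library. Exact permutation tests used scipy 1.17.1 on 3 measures per library, with 0.5 counts added in log ratios. The fit was tested on simulated data. The members and lists were chosen with earlier results of these data known. Named miRNAs are the miR-26 strands, those with the same seed, the 5 closest profiles, the neighbours in level, and in each list the 2 most abundant and those with an unadjusted p under 0.05.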

Additional observations from a re-analysis of the deposited data

How the results depend on the processing

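The number of miR-26 strands called was 0 under all 16 alternatives, with adjusted p-values of 0.873 to 0.999 for miR-26a-5p and 0.965 to 0.999 for miR-26b-5p. The log2 fold change of miR-26a-5p kept its sign under 13 of 16. It became -0.045 with library totals and ranged from -0.060 to 0.277 without 1 library, below 0 without not freeze-dried replicate 2 or freeze-dried replicate 1. Leaving out not freeze-dried replicate 1 or 2 moved the median of all tested miRNAs to 0.568 or 0.503, and relative to it miR-26a-5p stood at -0.291 or -0.563 and miR-26b-5p at -0.457 or -0.505. That of miR-26b-5p became -0.046 with upper-quartile normalization, -0.094 with library totals, -0.041 with limma-voom and -0.075 with the replicate block, and ranged from -0.007 to 0.178 without 1 library. With the replicate block miR-26a-5p was at 0.164, and both intervals passed 2-fold. The 2 pairs of equal replicate number had deviations correlated at 0.15 and -0.11, and neither these 2 values nor the labels settle whether equal numbers mark paired samples. With upper-quartile normalization the interval of miR-26b-5p also passed 2-fold (-1.02 to 0.93). The difference in the family's share of counts ranged from -0.208 to 0.120 percentage points without 1 library and was 0.206 without let-7. The difference in the log2 ratio of miR-26a-5p to miR-26b-5p was 0.054 and ranged from -0.063 to 0.241 without 1 library. That of miR-26a-5p to miR-26a-2-3p was -0.730 (exact permutation p = 1) and ranged from -2.74 to 1.08, above 0 without not freeze-dried replicate 1 or freeze-dried replicate 2, and cannot be formed without a pseudocount. The cause of these changes was not tested. Leaving out a not freeze-dried library sets 1 library, assumed to vary like the others, against 3. The shallow libraries, with 238 and 378 counts of miR-26b-5p, limit what can be seen of the family.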
